A study of Mus musculus with 24 samples.

Results

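Cholesterol synthesis was followed through 8 named genes of the mouse mammary gland: Hmgcs1, Idi1, Fdps, Fdft1, Sqle, Lss, Cyp51 and Insig1. The genes were chosen by name, as rows of the count table whose Ensembl identifier carries 1 of these symbols in the GENCODE M1 annotation. Of the 8, 7 had such a row and all 7 were among the 14918 genes tested, out of 37991 in the table, and Hmgcs1 was not analysed here. The samples were mammary tissue of female mice at weeks 6, 8, 10 and 12, with 3 PyMT and 3 FVB mice at each week and 24 libraries in all. PyMT mice were FVB/N animals heterozygous for the polyoma virus middle T antigen, driven by the MMTV long terminal repeat and so expressed in mammary epithelium, and the FVB controls of the same age lacked the transgene. These ages stand, in turn, for hyperplasia, for adenoma with mammary intraepithelial neoplasia (MIN), and for carcinoma at an early and then a late stage. PyMT samples were glands with lesions or tumors and FVB samples were normal glands. In such bulk samples, fewer cells of a type and less RNA per cell cannot be told apart.

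Cells build cholesterol from acetyl-CoA through mevalonate, isoprenoid units, squalene and lanosterol. Idi1 interconverts the isoprenoid units, Fdps joins them into farnesyl diphosphate, and Fdft1 joins farnesyl units into squalene. Sqle oxidizes squalene in a rate-limiting step, Lss closes the rings to give lanosterol, and Cyp51 removes a methyl group from lanosterol. The genes of these enzymes are known targets of SREBP-2, a transcription factor held in the endoplasmic reticulum when sterols are plentiful. Insig1 is not an enzyme but the anchor that holds the SREBP escort protein Scap there, and it is itself an SREBP target, so in many cells it rises and falls with the enzymes it restrains. Mammary adipocytes and the milk-producing epithelium both make lipid.

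On the mm9 genome the analysed genes, which leave out Hmgcs1, lie on separate chromosomes, except Cyp51 and Insig1, which share chromosome 5. Idi1 is at chr13:8884852-8891641 on the plus strand, Fdps at chr3:88897514-88905881 on the minus strand, and Fdft1 at chr14:63763990-63796630 on the minus strand. Sqle is at chr15:59146632-59162747 on the plus strand and Lss at chr10:75994333-76019883 on the plus strand. Cyp51 is at chr5:4081145-4104746 on the minus strand and Insig1 at chr5:28397952-28405201 on the plus strand.

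Promoter sequences from RefSeq on the GRCm38.p6 build, a later build than that of the counts, were matched for 5 of the 8 symbols: Hmgcs1, Idi1, Lss, Cyp51 and Insig1. In the 250 bases before the start, a CCAAT box (CCAAT, on either strand) was found in all 5, against 33.8% of all 32851 promoters in windows of this length. The GC box GGGCGG, on either strand, was also in all 5, against 32.7% of all promoters. The SREBP site searched for (TCACNCCAC, on either strand) was found in Hmgcs1 alone, 137 to 129 bases before the start, and 1.05% of all promoters hold it. The E-box CACGTG, which reads the same on both strands, was found in Insig1 alone, 101 to 96 bases before the start, against 6.02% of all promoters. A match of letters is a description of the window and not a measured binding site. The Idi1 and Insig1 windows are printed because these genes differed between the genotypes in opposite directions. Idi1 is from chr13:8885356-8885605 and Insig1 from chr5:28071162-28071411, both on the plus strand of GRCm38.p6, and capitals mark CCAAT boxes on either strand (CCAAT or ATTGG) and the E-box.
Idi1: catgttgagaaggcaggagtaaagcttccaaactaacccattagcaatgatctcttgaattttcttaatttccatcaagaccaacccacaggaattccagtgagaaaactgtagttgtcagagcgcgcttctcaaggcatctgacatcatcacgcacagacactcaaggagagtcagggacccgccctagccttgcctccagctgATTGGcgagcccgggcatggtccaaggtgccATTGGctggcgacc
Insig1: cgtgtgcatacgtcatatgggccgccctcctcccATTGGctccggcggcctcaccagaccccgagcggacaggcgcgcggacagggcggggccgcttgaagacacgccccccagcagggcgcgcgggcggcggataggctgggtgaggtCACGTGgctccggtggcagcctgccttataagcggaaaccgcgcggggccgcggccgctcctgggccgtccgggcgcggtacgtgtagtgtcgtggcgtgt
Idi1 holds its CCAAT letters 45 and 14 bases before the start, and Insig1 holds them 216 bases before the start, in both genes on the minus strand.

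The total count was 6969375 to 13516601 per library. In 13 of the 24 libraries (6 PyMT and 7 FVB) the counts came in packets of 8 to 25 reads, meaning that counts of many genes piled up at multiples of 1 size, so that low values there are less precise than their counts show. Week 6 had packets in every PyMT library, and week 10 had them in every FVB library. Idi1, the lowest of the genes, had counts of 15 to 278, and in FVB libraries with packets its counts were 0.833 to 7.25 times the packet size. Of 8 adipocyte markers, all 8 fell in PyMT in the mean of 4 weeks, and their mean level on the log2 scale was 6.10 to 9.74 over PyMT and 11.7 to 13.2 over FVB libraries. Of 8 luminal epithelial markers, 6 rose, and none of the 8 was at 0 in any library. The other 2 had log2 fold changes below 0, down to -0.59, and 1 of them had an adjusted p under 0.05 by edgeR. The mean log2 level of the 8 was 11.3 to 12.1 in PyMT against 9.00 to 11.1 in FVB. Skeletal muscle markers, summed over 6 genes, ran from 0 to 31805 normalized counts in PyMT libraries, where each of the 6 was at 0 in some library, and from 76.6 to 565785 in FVB libraries, where 4 of the 6 were. In 4 FVB libraries this sum passed 100000: replicates 1 and 2 of week 6, replicate 3 of week 10 and replicate 1 of week 12. Of the other lists counted over the 4 weeks, 5 of 5 milk protein genes and 4 of 4 proliferation markers rose, and 3 of 6 basal, 5 of 5 fibroblast and 4 of 4 endothelial markers fell. Of all tested genes, 8.7% rose and 17.5% fell in this comparison. None of 5 macrophage markers was called, and of 4 lymphocyte markers only 1 was tested and it was not called. The part of these cell types in the differences below was not tested.

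The first comparison asked whether sterol synthesis genes differ between PyMT and FVB tissue over the 4 weeks together. The genes split. Sqle was 2.13-fold higher and Idi1 2.40-fold higher in PyMT, while Insig1 was 3.57-fold lower, and these 3 of the 7 were called. A gene was called when edgeR's quasi-likelihood test gave a Benjamini-Hochberg adjusted p under 0.05 and the change was beyond 2-fold, and 26.2% of all tested genes were called in this comparison, 8.7% higher and 17.5% lower. Calls were thus common here, and the count of 3 in 7 says little about the genes as a group. Fdps was 1.87-fold higher and Fdft1 1.87-fold lower, each with an adjusted p under 0.05 but short of 2-fold. Lss and Cyp51 were not called, with log2 fold changes of 0.23 ± 0.15 (SE) and 0.30 ± 0.20 (adjusted p 0.19 and 0.22). The median log2 fold change of the 7 was 0.30, against -0.03 over all genes tested.

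At week 6 Sqle and Fdps were called higher and Insig1 lower, when 10% of all genes were called, 3.58% higher and 6.46% lower. At week 8 only Sqle was called, higher, with 9.95% of all genes called, 3.57% higher and 6.37% lower. At week 10 only Insig1 was called, lower, with 13.9% of all genes called, 4.83% higher and 9.09% lower. At week 12 Sqle was higher and Fdft1 and Insig1 were lower, with 20.7% of all genes called, 7.75% higher and 13% lower. The groups did not overlap for 4 genes with PyMT above and 1 with PyMT below at week 6, where 36.6% of all genes did not overlap. This was so for 3 genes above at week 8 (40.2% of all genes), 1 above and 1 below at week 10 (40.5%), and 1 above and 2 below at week 12 (46.7%). Lss overlapped at all 4 weeks.

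**Figure D1:**
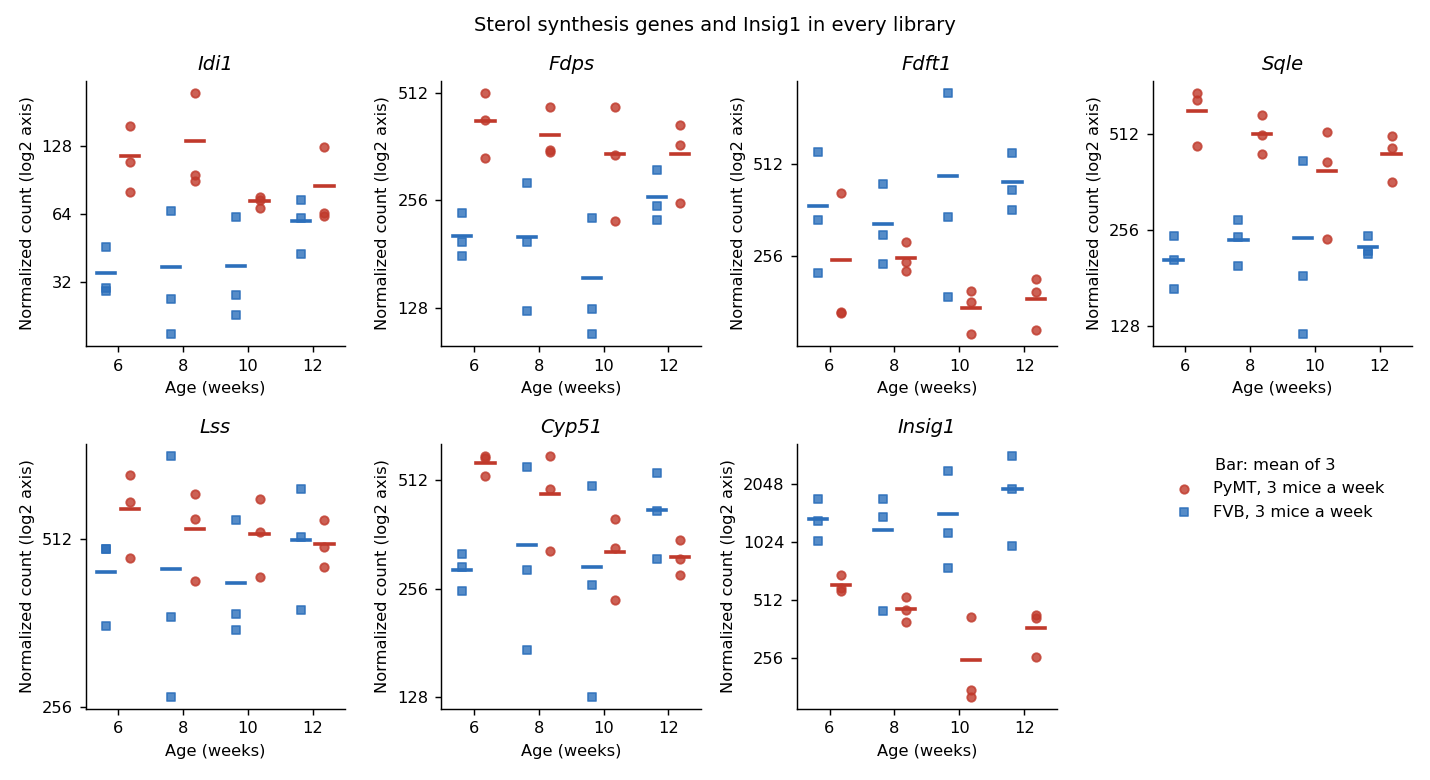
Normalized counts (log2 axis) of the 7 genes in every library by age in weeks, red circles for PyMT and blue squares for FVB, with bars at the mean of 3 libraries. Sqle at week 6 was 468 to 688 in PyMT and 167 to 245 in FVB, whereas Insig1 at week 12 was 259.6 to 429.7 in PyMT and 974 to 2869 in FVB.

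The isoprenoid enzymes Idi1 and Fdps were higher in PyMT over the 4 weeks. Idi1 at week 6 had 109.5, 80.3 and 158 normalized counts (counts over DESeq2 size factors) in PyMT and 30.1, 29.3 and 45.8 in FVB. Week 8 gave 89.7, 220.3 and 95.3 in PyMT and 18.9, 66.3 and 27.1 in FVB. Every PyMT library stood above every FVB library at both weeks. At week 10 Idi1 had 76.5, 74.4 and 68.2 in PyMT and 62.5, 23.0 and 28.2 in FVB, again without overlap. At week 12 it had 127, 63.0 and 64.7 in PyMT and 61.9, 74.4 and 42.6 in FVB, and the groups overlapped. The log2 fold change of Idi1 was 1.72 ± 0.55 (SE) and 1.84 ± 0.66 in weeks 6 and 8 and 0.98 ± 0.73 and 0.55 ± 0.47 in weeks 10 and 12. None of these single weeks passed edgeR's test (adjusted p 0.082, 0.11, 0.42 and 0.42), while the mean of the 4 weeks did (1.26 ± 0.28, adjusted p = 8.2e-04). Of 13 alternatives at each week, 4 called Idi1 at week 6, 2 at week 8 and 0 at weeks 10 and 12. In the 11 libraries without packets, with week as a term, Idi1 was 0.87 higher with an adjusted p of 0.11 by edgeR. These libraries hold both genotypes at weeks 8 and 12 alone (2 PyMT against 1 FVB, and 2 against 2), so this value leaves out weeks 6 and 10.

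Fdps at week 6 had 429, 337 and 511 normalized counts in PyMT and 236, 196 and 179 in FVB. Week 8 gave 349, 354 and 466 in PyMT and 286, 195 and 125 in FVB. The groups did not overlap at these weeks. At week 10 Fdps had 468, 343 and 224 in PyMT and 229, 127 and 108 in FVB, where the lowest PyMT library fell just below the highest FVB library. At week 12 it had 366, 252 and 415 in PyMT and 312, 226 and 247 in FVB, and the groups overlapped. Its log2 fold change of 1.06 ± 0.27 in week 6 was called (adjusted p = 0.039, edgeR). The values of 0.96 ± 0.35, 1.20 ± 0.42 and 0.45 ± 0.26 in the later weeks were not (adjusted p 0.11, 0.093 and 0.23). The week 6 call was lost when PyMT replicate 1 or 3 or FVB replicate 2 or 3 was left out, with log2 fold changes of 0.95 to 1.10 and adjusted p of 0.088 to 0.11 by edgeR. Over the 4 weeks Fdps was 0.90 ± 0.17 higher (adjusted p = 1.5e-04).

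The enzymes that make and oxidize squalene, Fdft1 and Sqle, differed in opposite directions. Sqle at week 6 had 653, 468 and 688 normalized counts in PyMT and 167, 205 and 245 in FVB. Week 8 gave 442, 507 and 589 in PyMT and 242, 276 and 197 in FVB. All PyMT libraries were above all FVB libraries at both weeks, as they were at week 12. At week 10 Sqle had 520.5, 417 and 239.7 in PyMT and 419.7, 183 and 120.5 in FVB. Week 12 gave 462, 361 and 505 in PyMT and 245, 219 and 214 in FVB. The week 10 groups overlapped through FVB replicate 1, which lay above PyMT replicates 2 and 3. The log2 fold change of Sqle was called in weeks 6, 8 and 12, with 1.55 ± 0.26, 1.12 ± 0.24 and 1.02 ± 0.21 (adjusted p 0.0083, 0.026 and 0.0089, edgeR). In week 10 it was 0.74 ± 0.50 (adjusted p = 0.38). Over the 4 weeks it was 1.09 ± 0.17 (adjusted p = 2.2e-05). At week 8 the call was lost without PyMT replicate 1 or 3 or FVB replicate 2 or 3 (adjusted p 0.059 to 0.10 by edgeR, log2 fold changes 0.98 to 1.24). At week 12 the change was so near 2-fold that leaving out PyMT replicate 1 or 3 or FVB replicate 2 or 3 took it to between 0.90 and 1.00, with adjusted p of 0.019 to 0.042 by edgeR.

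Fdft1 at week 6 had 166, 412 and 168 normalized counts in PyMT and 559.8, 337 and 225 in FVB, with overlap. At week 8 it had 245, 284 and 229 in PyMT and 439, 300.1 and 242 in FVB, also with overlap. PyMT replicate 2 was the highest of the PyMT libraries and FVB replicate 1 the highest of all at both weeks. At week 10 Fdft1 had 182, 197 and 142 in PyMT and 343, 188 and 873 in FVB. Week 12 gave 216, 146 and 196 in PyMT and 554, 419.7 and 363 in FVB, and only here did all PyMT libraries lie below all FVB libraries. Week 12 alone was called for Fdft1, at a log2 fold change of -1.21 ± 0.25 (adjusted p = 0.0090, edgeR), after -0.61 ± 0.46, -0.36 ± 0.29 and -1.37 ± 0.52 in the earlier weeks (adjusted p 0.44, 0.46 and 0.12). The week 12 call was lost with library size scaling (-0.88, adjusted p = 0.026) and in the fit of all 24 samples (-1.24, adjusted p = 0.053). The mean over 4 weeks was -0.90 ± 0.22 (adjusted p = 1.9e-03).

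The highest Fdft1 value of FVB at weeks 6, 10 and 12 was in each case in the FVB library of that week with the most skeletal muscle RNA, at a muscle marker sum of 532526, 565785 and 305971 normalized counts. Leaving out the library in each of these weeks gave Fdft1 log2 fold changes of -0.16, -0.57 and -1.03, with adjusted p of 0.89, 0.31 and 0.028 by edgeR. Leaving out all 4 FVB libraries with a muscle sum over 100000 kept only replicate 3 of FVB at week 6, so the estimates rest in part on that library. The mean of the 4 weeks was then -0.44 for Fdft1, 0.99 for Sqle, 1.16 for Idi1 and -1.64 for Insig1. Sqle thus fell just short of 2-fold, and the estimates of Idi1 and Insig1 stayed beyond it. Fdft1 also overlaps a neighbour. Its last 769 bases are shared, on the opposite strand, with the end of Ctsb (chr14:63741302-63764758, plus strand), the gene of the lysosomal protease cathepsin B, and the strand setting of the counting is not given in the sources used here. Ctsb had a median of 6167 normalized counts against 244 for Fdft1, and its log2 fold change was -0.81 ± 0.11 over the 4 weeks (adjusted p = 3.6e-06, edgeR) and -1.13 ± 0.24 at week 12. Their part in the Fdft1 difference was not tested.

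The lanosterol enzymes Lss and Cyp51 had the smallest estimates of the 7 in the mean of 4 weeks. Lss ran from 429 to 666 normalized counts over the 12 PyMT libraries, with a median of 540.1, and from 267 to 720.3 over the 12 FVB libraries, with a median of 436. The PyMT range lay inside the FVB range, and the log2 fold change was 0.36 ± 0.23 at week 6 and 0.03 ± 0.22 at week 12. Cyp51, the lanosterol demethylase, had 596, 527 and 589 normalized counts in week 6 PyMT libraries and 294, 319 and 253 in FVB, with no overlap. Its log2 fold change there was 0.98 ± 0.21 (adjusted p = 0.021, edgeR), just under 2-fold, and it passed 2-fold without FVB replicate 1 (1.02, adjusted p = 0.032) or PyMT replicate 2 (1.09, adjusted p = 0.025). Week 8 gave 325, 598 and 482 in PyMT and 555, 288 and 173 in FVB. Week 10 gave 332, 398 and 238 in PyMT and 494, 128 and 261 in FVB. The groups overlapped widely at both weeks. Week 12 gave 349.5, 279 and 309.6 in PyMT and 537, 309 and 421 in FVB, with overlap, the highest library being FVB and the lowest PyMT. The log2 fold changes of these later weeks were 0.48 ± 0.43, 0.17 ± 0.48 and -0.39 ± 0.24 (adjusted p 0.53, 0.86 and 0.27), so that the sign at week 12 was opposite to that at week 6.

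Insig1, the regulator, had the largest difference of the 7 in the mean of 4 weeks. At week 6 it had 588, 573 and 688 normalized counts in PyMT and 1314, 1705 and 1034 in FVB. Week 8 gave 457, 533 and 396 in PyMT and 1712, 1379 and 451 in FVB. The groups overlapped at week 8 alone, where FVB replicate 3 lay within the PyMT range. At week 10 Insig1 had 417, 174 and 161 in PyMT and 2391, 748 and 1136 in FVB. Week 12 gave 429.7, 259.6 and 411 in PyMT and 2869, 974 and 1930.0 in FVB. The week 12 means were 367 ± 93.3 (SD, n = 3) in PyMT and 1925 ± 948 in FVB. Insig1 was called in weeks 6, 10 and 12, at log2 fold changes of -1.14 ± 0.23, -2.46 ± 0.54 and -2.34 ± 0.39 (adjusted p 0.016, 0.018 and 0.0034, edgeR). Week 8 gave -1.35 ± 0.44 (adjusted p = 0.089). Over the 4 weeks it was -1.83 ± 0.24 (adjusted p = 1.9e-06). The week 6 call was lost without PyMT replicate 1 or FVB replicate 2 (adjusted p 0.076 and 0.053, edgeR). In all, 4 of 13 alternatives lost this call, only 2 of them by leaving a library out, with log2 fold changes of -1.25 to -0.87 over the 13. The week 10 call was lost without FVB replicate 1 or PyMT replicate 2 or 3 (adjusted p 0.052, 0.081 and 0.071, edgeR, log2 fold changes -1.84 to -2.25). The mean over 4 weeks was called with any 1 library left out.

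**Figure D2:**
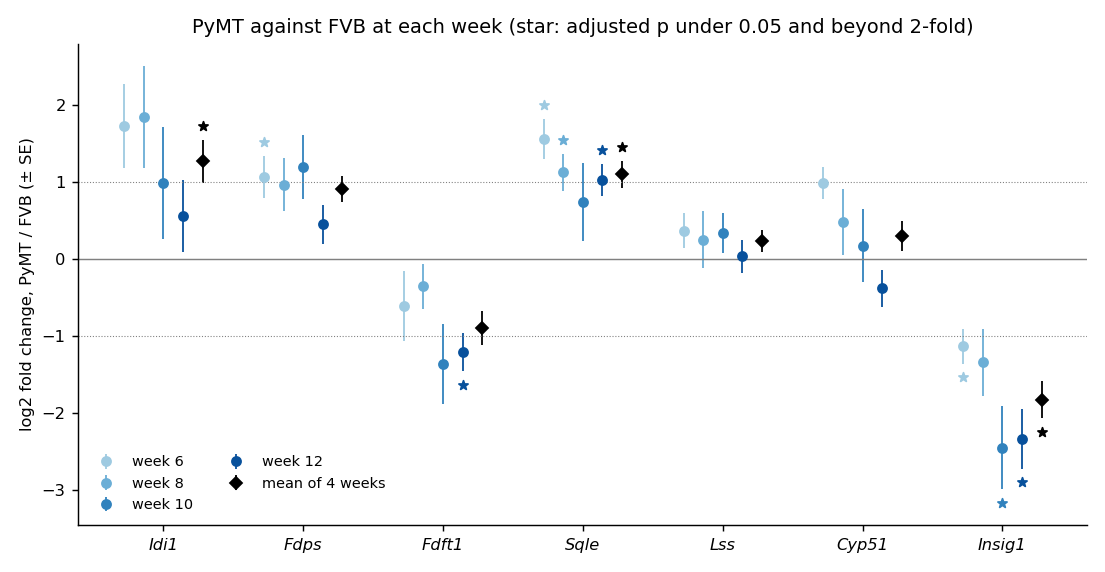
Log2 fold change of PyMT over FVB (vertical axis, ± SE) for the 7 genes at each week (blue circles, darker with age) and for the mean of 4 weeks (black diamonds), with stars where a gene was called. Sqle, Idi1 and Fdps lie above 0 at every week, Insig1 and Fdft1 lie below 0 at every week, and Cyp51 goes from 0.98 at week 6 to -0.39 at week 12.

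The adipocyte markers counted above were lower in PyMT, as Insig1 was. Within a genotype, the Pearson r of Insig1 with the adipocyte score was 0.24 over the 12 PyMT libraries (Spearman rho 0.53) and 0.18 over the 12 FVB libraries (rho 0.22). Over both genotypes and both marker lists, luminal and adipocyte, the lowest p adjusted over the 28 relations with the 7 genes was 0.522. Neither relation of Insig1 with the adipocyte score passed a two-sided permutation test, with p of 0.45 (rho 0.080) in PyMT and 0.57 (rho 0.48) in FVB, and adjusted p of 0.89 in both for r and 0.75 in both for rho. Without the 2 libraries farthest from the median of the score, r was 0.48 and 0.42. With the luminal score, r of Insig1 was 0.08 in PyMT (rho -0.15) and -0.45 in FVB (rho -0.57). Without 2 libraries chosen in the same way, these r were -0.27 and -0.71. The part of adipocytes and luminal cells in the difference of Insig1 between genotypes was not tested.

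Ratios of 2 genes within a library do not depend on how libraries are scaled to each other. The ratio of Sqle to Insig1 counts was 0.818 to 2.40 over the 12 PyMT libraries, with a median of 1.17, and 0.0853 to 0.436 over the 12 FVB libraries, with a median of 0.159. The ranges did not overlap, although neither gene alone separated all 12 PyMT from all 12 FVB libraries, as 11.9% of all tested genes did. Idi1 to Insig1 ran from 0.140 to 0.428 in PyMT against 0.0111 to 0.0763 in FVB, and Lss to Insig1 from 0.803 to 3.46 against 0.180 to 0.591. Between enzymes, Fdps to Fdft1 ran from 0.818 to 3.04 in PyMT against 0.124 to 0.796 in FVB, where the lowest value was in FVB week 10 replicate 3, a library rich in muscle RNA. Of the 21 pairs of the 7 genes, 6 did not overlap: Sqle, Fdps, Lss, Idi1 and Cyp51 each with Insig1, and Fdps with Fdft1. Among all pairs of the 10974 tested genes with a count in every library, 13% did not overlap, and of the other such genes 10.2% did not overlap in their ratio to Insig1. The 5 pairs with Insig1 share that gene, which was lower in PyMT, and are not independent of each other. Sqle to Fdft1 overlapped, with a lowest PyMT value of 1.14 and a highest FVB value of 1.22.

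**Figure D3:**
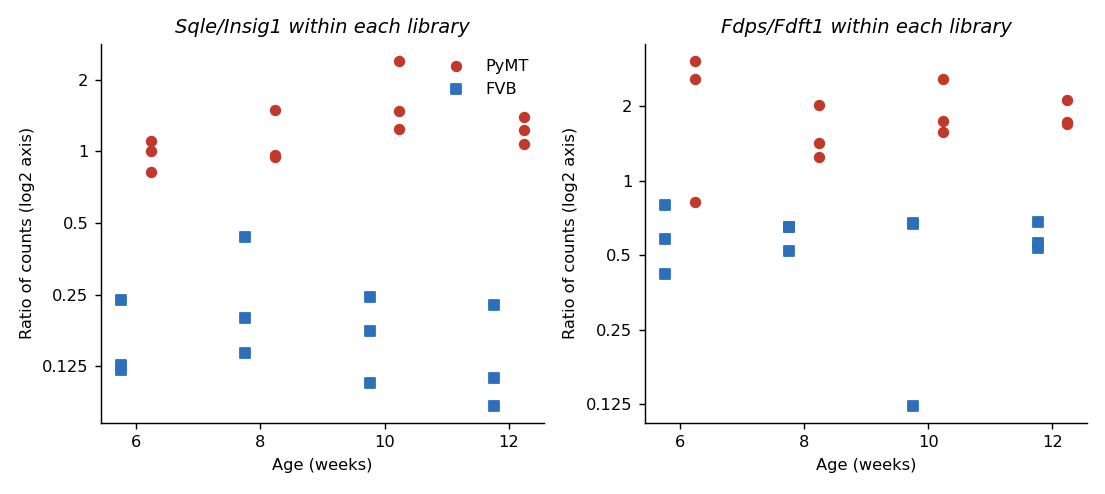
Ratio of counts (log2 axis) of Sqle to Insig1 and of Fdps to Fdft1 within each library by age in weeks, red circles for PyMT and blue squares for FVB. The 12 PyMT libraries lie above the 12 FVB libraries in both plots, from 0.818 upward for Sqle to Insig1 against at most 0.436 in FVB.

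Although Insig1 was lower and Sqle, Idi1 and Fdps were higher in PyMT, Insig1 was positively correlated with all 6 enzymes within each genotype. Over the 12 PyMT libraries the Pearson r of log2 normalized counts was positive for Insig1 with all 6 enzymes, with a median of 0.65 (0.30 to 0.82). Over the 12 FVB libraries it was also positive with all 6, with a median of 0.60 (0.36 to 0.87). Cyp51 and Insig1 had r of 0.70 in PyMT and 0.87 in FVB, and Fdps and Insig1 had 0.69 and 0.76. Sqle and Insig1 had 0.82 and 0.45. These values are given as a description, since the libraries of a genotype share depth, packets and tissue makeup as well as week. After the mean of each group of 3 was taken out, the r of Insig1 with the 6 enzymes was 0.27 to 0.79 over 24 libraries. Among all 21 pairs, 21 were positive in PyMT and 19 in FVB, and Fdft1 with Sqle was the lowest in FVB (-0.38). With the group means taken out, 18 of the 21 were positive, and Fdft1 with Sqle was again the lowest (-0.30). The share of positive pairs among all tested genes was not computed, so these counts say little about the genes as a group.

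**Figure D4:**
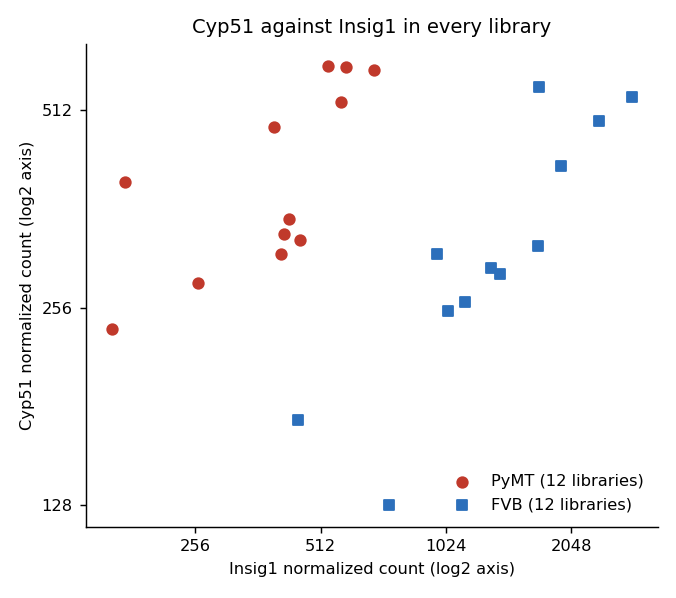
Normalized counts of Cyp51 (vertical) against Insig1 (horizontal), both on log2 axes, with 1 point per library, red circles for PyMT and blue squares for FVB. Cyp51 was higher where Insig1 was higher in each genotype (r of 0.70 and 0.87), but at a given Cyp51 level the FVB points lie at a higher Insig1 level.

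Levels of the genes were set side by side per kb of exon, with all annotated exons of a gene joined. This length was 1233 bases for Fdps and 10787 for Lss. A gene with long or many annotated transcripts stands lower by this measure, and which transcripts were expressed was not measured. Before the division Lss had the highest median count in PyMT (540.1), so the order holds for this length alone. In PyMT the order of the median normalized count per kb was Fdps (292), Insig1 (160.0), Sqle (87.8), Cyp51 (87.2), Fdft1 (68.7), Lss (50.1) and Idi1 (29.7). Sqle and Cyp51 did not differ beyond their spread, with Sqle the higher in 5 of 12 libraries. In FVB the order was Insig1 (509), Fdps (171), Fdft1 (123), Cyp51 (70.4), Lss (40.4), Sqle (39.1) and Idi1 (12.7). Lss and Sqle did not differ beyond their spread there, with Lss the higher in 7 of 12 libraries. Insig1 was above Fdps in 12 of 12 FVB libraries and Fdps above Insig1 in 12 of 12 PyMT libraries.

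The next comparison asked whether the genes changed with age within a genotype. From week 6 to week 12 all 7 log2 fold changes were below 0 in PyMT and all 7 above 0 in FVB, but none was called in either, when 0% of all genes were called in each. In PyMT the largest estimates were those of Cyp51 (-0.86 ± 0.40, adjusted p = 0.71, edgeR) and Insig1 (-0.75 ± 0.47, adjusted p = 0.86). In FVB they were those of Idi1 (0.74 ± 0.56) and Cyp51 (0.52 ± 0.40), each with an adjusted p of 1.00. The unadjusted p of Cyp51 in PyMT was 0.041, the only one of the 7 under 0.05 there, while 1004 of all genes (6.73%) were under it. In FVB none of the 7 was, against 625 of all genes (4.19%). Without FVB week 6 replicate 1, Sqle in FVB was -0.01, without FVB week 6 replicate 3 Fdft1 in FVB was -0.05, without FVB week 12 replicate 3 Lss in FVB was -0.01, and without PyMT week 6 replicate 2 Fdft1 in PyMT was 0.15. DESeq2's Wald test called 0 of the 7 in both, and 97 and 19 of all genes. The 8 adipocyte markers had estimates of the same signs, with a median log2 fold change of -1.18 in PyMT and 0.72 in FVB and none called, and their part in the values of the 7 genes was not tested.

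Whether the genotype difference itself shifted from week 6 to week 12 was tested as an interaction, which rests on the samples of the age comparisons just given. All 7 estimates were below 0, at -1.38 ± 0.56 for Cyp51, -1.23 ± 0.66 for Insig1, -1.19 ± 0.79 for Idi1 and -0.64 to -0.35 for the others. None was called (0% of all genes), with adjusted p of 0.97 for Cyp51 and 1.00 for the rest by edgeR, and 691 of all genes (4.63%) had an unadjusted p under 0.05, Cyp51 among them (0.023). From week 8 to week 10, the step from adenoma to early carcinoma, none of the 7 was called and 0.0067% of all genes were. The estimates there were -1.13 ± 0.66 for Insig1 and -1.02 ± 0.62 for Fdft1, and none of the 7 had an unadjusted p under 0.05 (3.57% of all genes did). DESeq2's Wald test called 0 of the 7 in both tests, and 10 and 7 of all genes.

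Of 14 other enzymes of the pathway, all tested, none rose and 1 fell beyond 2-fold in the mean of 4 weeks, when 8.7% of all genes rose and 17.5% fell. At an adjusted p under 0.05 at any fold 4 were higher and 4 lower, near the 51% of all genes that met this rule. Their median log2 fold change was 0.04. Sc5d, which introduces a late double bond, fell by 1.34 on the log2 scale (SE 0.17, adjusted p = 1.7e-06, edgeR). At week 6, 3 of the 14 rose, against 3.58% of all genes: Hsd17b7 (1.21), Ebp (1.14) and Dhcr7 (1.02). Mvd had the largest estimate there (1.26, adjusted p = 0.14, edgeR) and was not called. At weeks 8 and 10 none rose and 1 fell, Sc5d at -1.54 and -1.64. Of all genes, 3.57% rose and 6.37% fell at week 8, and 4.83% rose and 9.09% fell at week 10. At week 12 none rose and 4 fell: Nsdhl (-1.61), Sc5d (-1.59), Sc4mol (-1.20) and Acat2 (-1.13). Of all genes, 7.75% rose and 13% fell there. The median of the 14 was 0.15, 0.46, 0.22 and -0.55 at weeks 6, 8, 10 and 12. In the interaction from week 6 to week 12, 0 of the 14 were called, and 0% of all genes.

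Of 8 other regulators, 1 rose and 1 fell over the 4 weeks, when 8.7% of all genes rose and 17.5% fell. Srebf1, which encodes the SREBP-1 factors and favours fatty acid genes, rose by 1.59 ± 0.16 on the log2 scale (adjusted p = 5.3e-08, edgeR), and was called at weeks 6, 10 and 12. Nr1h3, the oxysterol receptor LXR alpha, fell by 2.96 on the log2 scale (SE 0.40, adjusted p = 2.5e-06). Srebf2, which encodes SREBP-2, was 0.01 ± 0.16 higher (adjusted p = 0.98), and Insig2, the other anchor, differed by 0.00 ± 0.17 (adjusted p = 0.99). Scap, the escort protein that Insig1 holds, was 0.78 ± 0.11 higher (adjusted p = 6.6e-06), short of 2-fold. Of 11 genes of sterol uptake and efflux, 10 were tested, none rose and 2 fell, against the same 8.7% and 17.5% of all genes. Abca1, a cholesterol exporter, fell by 1.11 on the log2 scale (SE 0.12, adjusted p = 1.1e-07, edgeR). Scarb1, a lipoprotein receptor, fell by 1.03 (SE 0.14, adjusted p = 2.7e-06, edgeR).

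**Figure D5:**
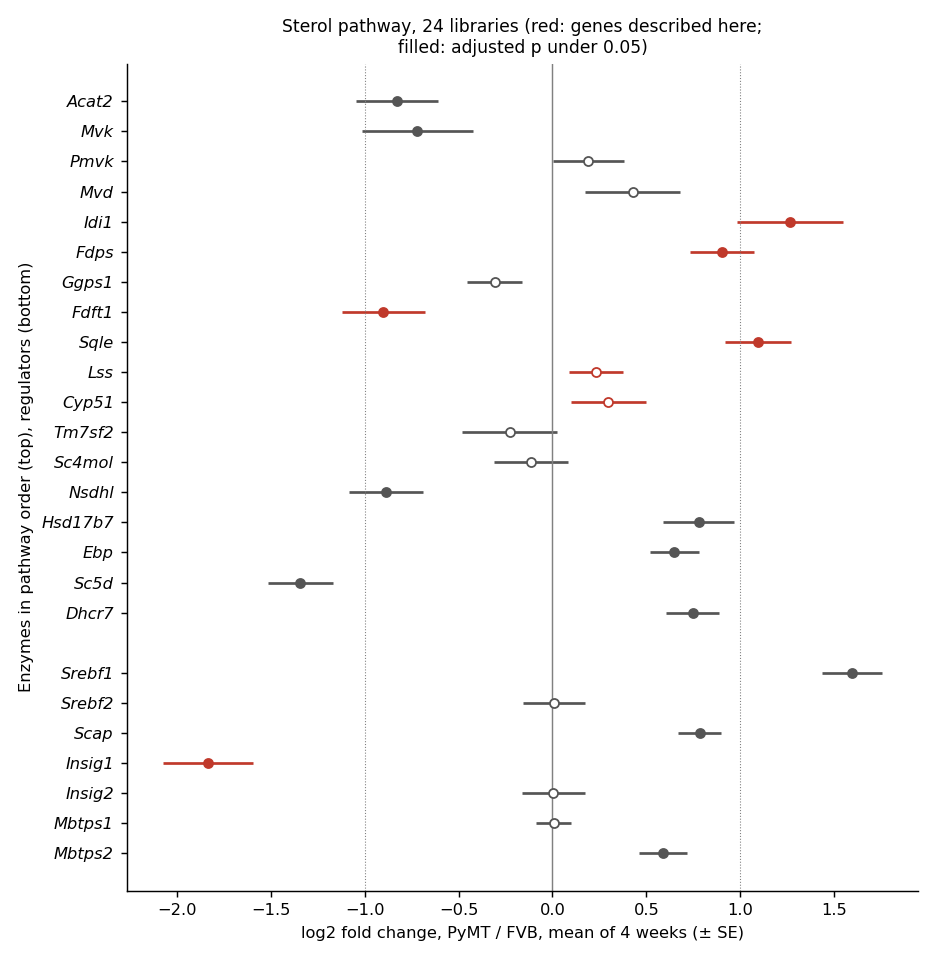
Log2 fold change of PyMT over FVB in the mean of 4 weeks (horizontal axis, ± SE) for named sterol pathway enzymes in pathway order and for regulators below, red for the genes described here, filled at an adjusted p under 0.05. Enzymes lie on both sides of 0, from Idi1 at 1.26 to Sc5d at -1.34. Of the 7 regulators drawn, which leave out Nr1h3, Insig1 is at -1.83 and Srebf1 at 1.59.

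The genes whose pattern was most like the mean of the 7 were ranked by Pearson r among the 10382 other genes whose normalized count averaged at least 100. Over the 24 libraries the top 8 were Scd2 (0.78), Mrpl16, Asna1, Farsb, Mrpl9, Hspd1, Chmp6 and Gramd3 (0.70). For deviations from the group means they were Gmds (0.80), Cdkn2c, Atf6, Scd2, Pvt1, Sc4mol, Mrpl16 and Asna1 (0.70). Scd2, a fatty acid desaturase, stood in both lists, and Sc4mol, the sterol methyl oxidase that acts after Cyp51, stood 6th in the second. Nsdhl, the next enzyme, stood 9th and Acat2 21st in the second list, at 0.69 and 0.65. Dhcr7 was negative there, at -0.18.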

How the data were processed

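Total RNA of mammary tissue was depleted of ribosomal RNA and sequenced from libraries that mark strand. After adapter trimming, the authors used GSNAP for alignment to mm9 and HTSeq for counting, and deposited raw counts per Ensembl gene without normalization, 1 column per sample. Groups were genotype and week, from the titles. The labels name no batches and only number the replicates, so p-values measure the spread between these samples, which may be in part technical. Total counts were 6969375 to 13516601.

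Genes that reached a CPM of 1 in 12 or more of the 24 libraries were tested with edgeR 4.0.16 (quasi-likelihood test, TMM, Benjamini-Hochberg adjustment) in R 4.3.3. Each week was fitted on its own 6 libraries, and the mean of 4 weeks, the ages and the interactions were fitted on all 24. The SE is the log2 fold change over the square root of F. Normalized counts used DESeq2 1.42.0 size factors, with 1 added before log2. Alternatives were RLE or library size scaling, no filter, DESeq2, a replicate block, a joint fit, each library left out, and, chosen after seeing the data, division by packet size, limma 3.58.1 voom weights, the 11 libraries without packets, and leaving out 4 libraries rich in muscle RNA. The fits were tested on simulated data. Correlations with marker scores used 100000 permutations (SciPy 1.17.1). No 2 libraries of a group were copies, since the chi-square per gene of replicate pairs was 19.9 or more.

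The members and gene lists were chosen with earlier results of these data known. Besides the 7 genes, the rule named a fixed set that includes Srebf1, Srebf2, Scap and Insig2, some of which are not reported here, and of each other list at most 6 genes called over the 4 weeks. Other genes in the text were named after their values were seen.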

Additional observations from a re-analysis of the deposited data

How the results depend on the processing

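In the mean of 4 weeks Insig1 was called in all 34 alternatives, Sqle and Idi1 in 33 each, and the number of the 7 genes called ran from 3 to 4 with 1 library left out. Sqle lost its call at 0.99, short of 2-fold, without the 4 libraries rich in muscle RNA, a fit that kept only replicate 3 of FVB at week 6. Idi1 lost its call in the 11 libraries without packets (0.87), which compare the genotypes at weeks 8 and 12 alone. The single weeks were less stable. With 1 library left out the calls ran from 1 to 5 at week 6, 0 to 2 at week 8, 0 to 2 at week 10 and 2 to 3 at week 12, against 3, 1, 1 and 3. At week 8 the calls were 2 with library size only, with no filter and in the fit of all 24 samples, and 3 by DESeq2 and after division by packet size. At week 10 they were 2 by DESeq2 and 3 in the fit of all 24 samples, and at week 12 they were 1 in that fit. The cause was not tested. Over all genes DESeq2 called 2493 and division by packet size 2615 at week 8, against 1484. From week 6 to week 12, without a filter 8 genes were called in PyMT and 11 in FVB, and by DESeq2 97 and 19, against 0. DESeq2 called 10 and 7 genes in the interactions, against 0 and 1. All-gene counts went down to 857, 513 and 1262 at weeks 6, 8 and 10 without PyMT replicate 1, against 1498, 1484 and 2076.

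Replicate numbers are shared by the groups, and whether they pair the samples could not be decided. Same-numbered deviations correlated weakly, at -0.03 to 0.18 over 12 pairs, 4 of them over 0.1. Of 12 libraries, 6 correlated best with their own number. How many would do so by chance was not computed, and the labels do not say what the numbers stand for. With a replicate block 0 of the 7 genes were called at week 8, where Sqle kept a log2 fold change of 1.12 with an adjusted p of 0.061, and Fdps was not called at week 6 (adjusted p = 0.086), both by edgeR. The block changed no other call of the 7 genes.

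Signs turned only for values that were not called. Some of these lay near 0 and some did not. Leaving out 1 library turned Fdft1 in PyMT from week 6 to week 12 (-0.40 with all libraries). It also turned Sqle (-0.41) and Cyp51 (-0.32) in the change between weeks 8 and 10. Lss at week 12 was -0.0041 under RLE, -0.0042 by DESeq2 and from -0.18 to 0.21 with 1 library left out. With 1 library left out, Cyp51 at week 10 ran from -0.19 to 0.79. From week 6 to week 12, Fdft1 in PyMT then ran from -0.61 to 0.15, and in FVB Sqle ran from -0.011 to 0.24 and Fdft1 from -0.050 to 0.65, while Lss went down to -0.014. For the change between weeks 8 and 10, Lss ran from -0.44 to 0.34, Fdps from -0.12 to 0.63, Sqle from -0.73 to 0.28 and Cyp51 from -0.88 to 0.30. Library size scaling took the all-gene median log2 fold change to 0.19 at week 6 and 0.32 at week 12, from -0.08 and -0.00, and turned the sign of none of the 7 genes. Idi1, with the lowest counts, had the largest SE of the 7 at each week.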
